A study of Homo sapiens with 4 samples.

Results

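CALB1, which encodes the cytosolic calcium-binding protein calbindin-D28k, was compared with 9 other calcium handling genes in PC3, a long-established line of human prostate cancer cells. The 10 genes were taken by name from the 60544 genes of the deposited count table. They are the calbindins CALB1 and CALB2, the entry channel TRPV6, the plasma membrane pumps ATP2B1 and ATP2B4, the reticulum pump ATP2A2, the store-operated entry genes STIM1, ORAI1 and ORAI3, and the release channel ITPR3. The set was chosen by the measured difference of CALB1 between the groups, and the other genes were added by function with these data in view. The difference between groups is therefore given for the 10 genes as a description, with no test. Poly(A) RNA was sequenced from 2 libraries labelled shNC, the control arm, and from 2 more under the label sh812. A knockdown of METTL3 is named in the design, and sh812 was taken as that arm since no other label besides shNC occurs. All 4 libraries came from PC3 cells grown in the same serum-containing medium. The labels do not say whether the replicates are separate cultures, so the tests measure the spread between these libraries, which may be technical.

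Cells keep free calcium in the cytosol far below its level outside the cell and in the endoplasmic reticulum. Calcium enters through plasma membrane channels or leaves the reticulum through inositol trisphosphate receptors, is held by buffers such as the calbindins, and is removed by ATP-driven pumps. When the reticulum is depleted, STIM proteins in its membrane open ORAI channels at the cell surface, which is called store-operated entry. CALB1 and TRPV6 are known as vitamin D responsive genes in calcium-transporting epithelia, and TRPV6 is a channel known from prostate epithelium. METTL3 is the catalytic subunit of the enzyme that places m6A, a methylated adenosine, on messenger RNA. The study's libraries measured RNA abundance and not m6A itself.

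Total counts ranged from 31450648 to 37041330 per library, and levels are given as CPM, the count scaled to a common TMM-adjusted library size. METTL3 had 1682 and 1379 counts in shNC and 269 and 313 in sh812. The log2 ratio of sh812 to shNC, fitted and tested over all genes by edgeR's quasi-likelihood method with p-values adjusted by Benjamini and Hochberg, was -2.42 (SE 0.11, edgeR adjusted p = 5.54e-14). Epithelial and PC3 markers were present, with KRT8 at 7650 to 9102 counts and VIM at 18586 to 21972 counts per library. The androgen-regulated markers KLK3 and KLK2 had 0 counts in every library. The 6 epithelial and PC3 markers were KRT8, KRT18, KRT19, EPCAM, CDH1 and VIM. Of these, KRT18, EPCAM and CDH1 were called higher in sh812 (edgeR adjusted p under 0.05) and 0 lower, while 5.43% of all genes tested were called higher. Means of KRT18, EPCAM and CDH1 were 154, 73.2 and 10.8 CPM in shNC and 190, 99.8 and 16.0 CPM in sh812. The summed level of the 6, with VIM included, was 1395 to 1562 CPM in shNC and 1486 to 1566 CPM in sh812. The 4 leukocyte markers summed to at most 0.870 CPM in a library. The 5 fibroblast markers, 1 of them called higher, summed to 51.9 to 53.2 CPM in shNC and 47.2 to 54.3 CPM in sh812. The 3 endothelial markers summed to 23.8 CPM in both shNC libraries and to 32.9 and 38.8 CPM in sh812, nearly all of it PECAM1. PECAM1 was the 1 endothelial marker tested and was called higher in sh812, while VWF and CDH5 had 0 to 6 counts. The part of these markers in the results was not tested.

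CALB1 was well expressed in control cells and higher in both knockdown libraries. The shNC libraries held 5073 and 4069 counts, or 134 and 129 CPM. The sh812 libraries had 11577 and 12238 counts, or 330 and 342 CPM. The lowest sh812 library was far above the highest shNC library, and the replicates of each group lay close together. The mean was 131 CPM for shNC (SD 3.59, n = 2) and 336 CPM for sh812 (SD 8.61, n = 2). The fitted ratio was 2.56-fold, a log2 ratio of 1.36 with a 95% interval from 1.24 to 1.47. CALB1 (ENSG00000104327) is a minus-strand gene of chromosome 8, from 90058608 to 90095475 in GENCODE 29 (GRCh38), and no other annotated gene overlaps it.

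CALB2, which encodes the related buffer calretinin, was near the limit of detection. It had 6 and 4 counts in shNC and 6 and 2 in sh812, so the groups overlapped. Its mean was 0.142 CPM for shNC (SD 0.0224, n = 2) and 0.113 CPM for sh812 (SD 0.0813, n = 2). It did not pass the filter on low counts, and no fold change is given. Other small calcium buffers, S100G (calbindin-D9k) and PVALB (parvalbumin), had 0 counts in all 4 libraries. CALB1 was therefore the one of these 4 buffer genes with more than 6 counts in any library.

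**Figure D1:**
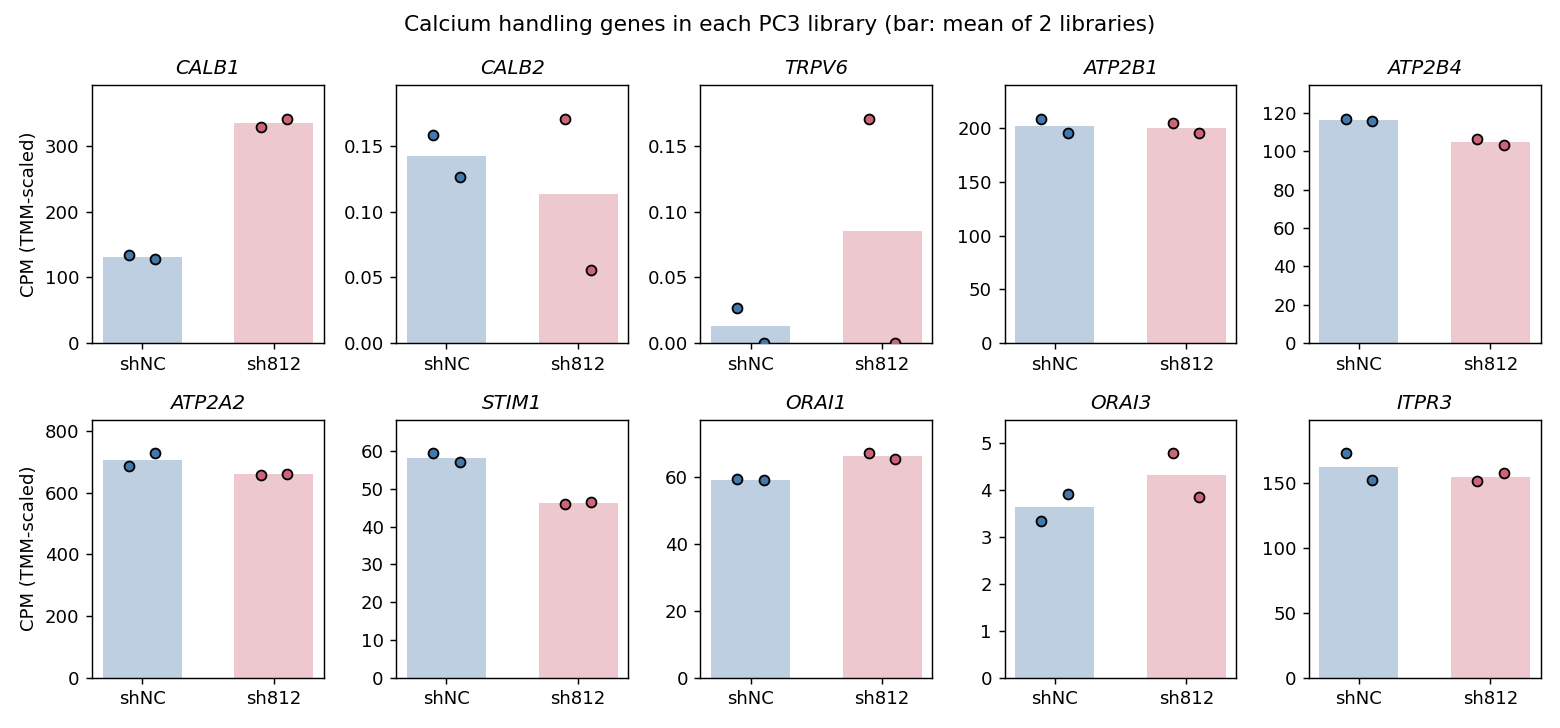
Level of each of the 10 genes in each library, in TMM-scaled CPM on a linear axis that starts at 0, with blue for shNC and red for sh812. Points are single libraries and bars are means of 2 libraries, and each panel has its own scale. CALB1 goes from 131 to 336 CPM between the group means, while CALB2 and TRPV6 stay below 0.2 CPM in every library.

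TRPV6, the calcium-selective channel of the plasma membrane, was almost undetected. It had 1 and 0 counts in shNC and 6 and 0 in sh812. A count of 0 allows a level of up to 0.0949 CPM in shNC replicate 2 and 0.0838 CPM in sh812 replicate 2 (3 counts, for counting error only). The 6 counts of sh812 replicate 1 had no counterpart in sh812 replicate 2. TRPV5, its close relative, had 0 counts in all libraries. The promoters of TRPV6 and ATP2B1 are shown because they had the fewest and the most CpG dinucleotides among the members with a promoter in the RefSeq table (GRCh38.p14), which held 7 of the 10. Each runs 5′ to 3′ on the gene's strand, from 250 bases before the annotated start to 50 after it, with CpG in capitals.
TRPV6, chr7:142885696-142885995, minus strand: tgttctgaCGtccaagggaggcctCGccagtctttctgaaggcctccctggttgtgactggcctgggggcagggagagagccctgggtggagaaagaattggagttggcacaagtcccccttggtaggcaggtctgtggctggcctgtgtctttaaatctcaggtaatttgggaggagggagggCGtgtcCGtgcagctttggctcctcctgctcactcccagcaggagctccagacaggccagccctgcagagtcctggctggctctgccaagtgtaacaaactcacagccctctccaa
ATP2B1, chr12:89709317-89709616, minus strand: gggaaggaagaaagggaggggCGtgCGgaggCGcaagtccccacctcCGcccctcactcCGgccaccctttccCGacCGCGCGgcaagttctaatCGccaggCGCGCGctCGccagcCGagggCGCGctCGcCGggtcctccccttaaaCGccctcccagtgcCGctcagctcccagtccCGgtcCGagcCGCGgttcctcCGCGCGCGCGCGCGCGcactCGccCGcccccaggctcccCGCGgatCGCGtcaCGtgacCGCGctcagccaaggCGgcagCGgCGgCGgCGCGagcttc

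TRPV6 had 4 CpG in this window and ATP2B1 had 48, against a median of 14 over 27305 promoters of the same length. Among the 7 members with a promoter, CpG content did not follow level throughout, since ATP2A2, the most abundant, had 14 and STIM1 had 38. TRPV6, the lowest in level of the 7, did have the fewest CpG. A relation of CpG content to level was not tested. The letters AGGTCA, a half-site of vitamin D and other nuclear receptors, were searched on both strands. They were in 0 of the 7 member promoters and in 13.9% of all promoters. CALB1, CALB2 and ORAI1 were not among the 7, so the CALB1 promoter was not searched. The related half-site AGTTCA was in 1 of the 7, that of ATP2A2, and in 10.5% of all promoters. These windows may not hold the start sites used in PC3 cells.

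The store-operated entry genes had fitted log2 ratios of different sign, and differences between these genes were not tested. STIM1, the calcium sensor of the reticulum membrane, had 59.4 and 57.1 CPM in shNC and 46.1 and 46.6 CPM in sh812. Both sh812 libraries were below both shNC libraries. The log2 ratio was -0.33, with a 95% interval from -0.48 to -0.18, and -0.32 and -0.34 without sh812 replicates 1 and 2. ORAI1, which encodes the main pore subunit of the entry channel, had 59.3 and 58.9 CPM in shNC and 67.0 and 65.3 CPM in sh812. Here both sh812 libraries were above both shNC libraries, with a log2 ratio of 0.16 and a 95% interval from 0.022 to 0.30. ORAI3, another pore subunit, had 3.35 and 3.92 CPM in shNC and 4.79 and 3.86 CPM in sh812. Its groups overlapped, and the 95% interval of its log2 ratio of 0.25 ran from -0.16 to 0.66. Without 1 library the ORAI3 ratio was 0.14 (shNC replicate 1), 0.37 (shNC replicate 2), 0.090 (sh812 replicate 1) or 0.40 (sh812 replicate 2). ORAI3 shares 1397 exon bases with AC135048.1 on the same strand, and STIM1 shares 329 exon bases with 4 other annotated genes, so some of their reads could be assigned differently. ORAI1 overlaps no other annotated gene.

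ITPR3, which encodes an inositol trisphosphate receptor of the reticulum, had 173 and 153 CPM in shNC and 152 and 158 CPM in sh812. The groups overlapped, and the log2 ratio was -0.073 with a 95% interval from -0.20 to 0.055. Its sign turned without shNC replicate 1 (0.021). ITPR3 shares 1025 exon bases with UQCC2 on the opposite strand, and whether the counting used strand is not given in the sources used here.

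The 3 pumps were all abundant and differed little between the groups. ATP2A2, which encodes the reticulum pump SERCA2, had 685 and 728 CPM in shNC and 659 and 662 CPM in sh812, with a log2 ratio of -0.097 and a 95% interval from -0.21 to 0.013. Leaving out an shNC library moved the ATP2A2 ratio to -0.14 (replicate 1 left out) or -0.048 (replicate 2 left out). ATP2B4, a plasma membrane pump, had 117 and 116 CPM in shNC and 106 and 103 CPM in sh812, with a log2 ratio of -0.15 and a 95% interval from -0.28 to -0.028. Both sh812 libraries lay below both shNC libraries for these 2 genes. ATP2B1, the other plasma membrane pump, had 209 and 195 CPM in shNC and 205 and 195 CPM in sh812. Its groups overlapped, and the log2 ratio was -0.014 with a 95% interval from -0.13 to 0.11. An interval that holds 0 does not show that the groups were equal.

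Of the 8 members that passed the filter on low counts, 3 had a higher fitted level in sh812 and 5 a lower one. The groups did not overlap for 5 of the 8, namely CALB1 and ORAI1 on the higher side and STIM1, ATP2A2 and ATP2B4 on the lower side. Non-overlap held for 53.6% of the 16802 genes tested, with 26.2% higher and 27.4% lower in sh812. Because the set was built on this contrast, nothing is read from these counts. The median log2 ratio of the 8 genes was -0.043, and that of all genes tested was -0.0056.

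**Figure D2:**
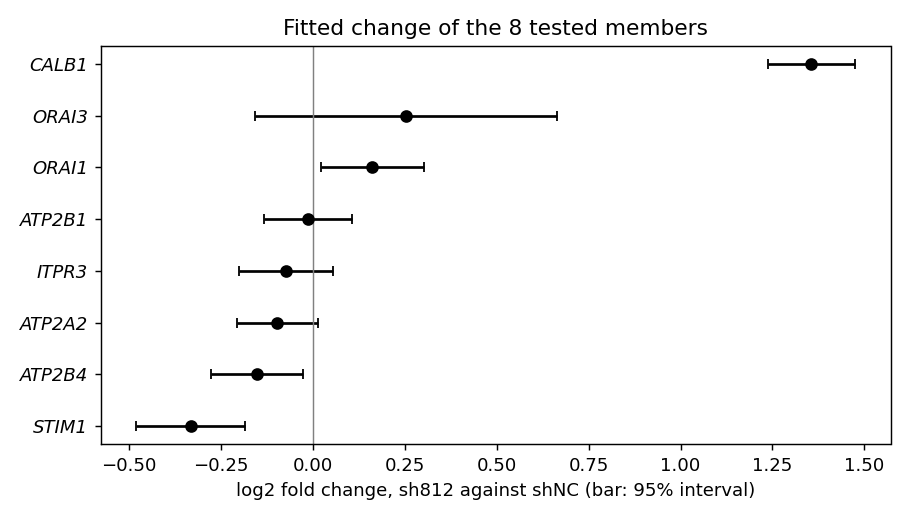
Fitted log2 ratio of sh812 against shNC for the 8 members that passed the count filter. Bars are approximate 95% intervals, taken as the normal multiple of the SE. CALB1 stands at 1.36, and the other 7 lie between -0.33 for STIM1 and 0.25 for ORAI3, whose value ran from 0.090 to 0.40 with a library left out.

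Levels of different genes were compared per kb of the longest coding transcript in GENCODE 29. In shNC the order was ATP2A2 at 173 ± 7.34 CPM per kb, CALB1 at 51.8 ± 1.42, ORAI1 at 39.5 ± 0.191, ATP2B1 at 28.7 ± 1.39 and ITPR3 at 16.5 ± 1.47 (SD, n = 2). STIM1 at 13.4 ± 0.370 and ATP2B4 at 13.0 ± 0.110 CPM per kb followed, and these neighbours differed by about the spread between replicates. ORAI3 was at 1.65 ± 0.184 CPM per kb, and CALB2 and TRPV6 were below 0.1. In sh812, CALB1 reached 133 ± 3.40 CPM per kb beside 161 ± 0.550 for ATP2A2 (SD, n = 2). The choice of length mattered for the control cells. With the length of all annotated exons together, CALB1 ranked 4 of the 10 in shNC in place of 2, and 2 in sh812 with either length.

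**Figure D3:**
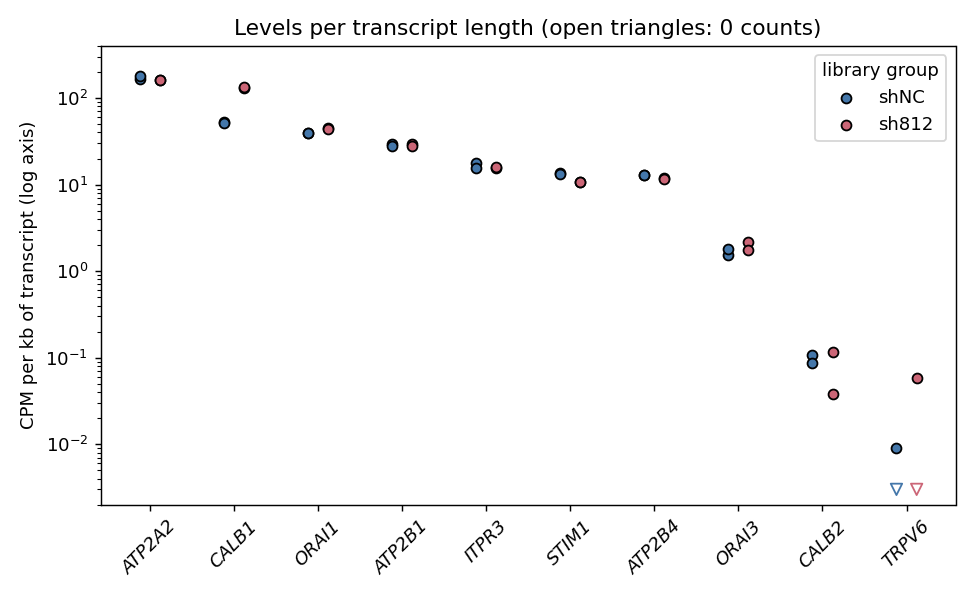
Level of each member per kb of its longest coding transcript, on a log axis, with 1 point per library (blue shNC, red sh812) and open triangles for libraries with 0 counts. The members span from ATP2A2 at 173 CPM per kb in shNC to TRPV6 with 0 counts in 1 library of each group, and CALB1 moves from 51.8 to 133.

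The members ITPR3, ORAI1, STIM1 and ATP2A2 were the most abundant of their families, on the same per-kb scale in shNC. ITPR3 at 16.5 CPM per kb was followed by ITPR1 at 8.15 and ITPR2 at 1.25. ORAI1 at 39.5 CPM per kb stood above ORAI2 at 5.30 and ORAI3 at 1.65. STIM1 at 13.4 CPM per kb was above STIM2 at 6.56. ATP2A2 at 173 CPM per kb was accompanied by only 0.490 for ATP2A3 and even less for ATP2A1. The paralogs were not called in sh812, with log2 ratios of -0.17 (SE 0.11, edgeR adjusted p = 0.343) for STIM2, -0.059 (SE 0.074, edgeR adjusted p = 0.689) for ORAI2 and 0.21 (SE 0.082, edgeR adjusted p = 0.107) for ITPR1. A difference in response between paralogs was not tested.

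The m6A writer prefers a short sequence whose best-known form in DNA letters is GGACT, so this run was counted on the sense strand of the longest coding transcript of each gene. CALB1 had 0 GGACT in its transcript of 2533 bases, and 10 of its 11 annotated transcripts had none. Over 20322 coding genes of the table, 13.5% had none, and among the 4381 transcripts within 20% of the CALB1 length the share was 8.15%. The shorter run GGAC, which includes every GGACT, occurred 4 times in CALB1, or 1.58 per kb against a median of 3.90 per kb. ATP2B1 had 1.56 GGAC per kb, CALB2 2.05, ORAI3 2.27, ATP2A2 2.69 and ATP2B4 3.68, also below that median. STIM1 at 5.05, TRPV6 at 5.81, ORAI1 at 6.02 and ITPR3 at 8.31 GGAC per kb were above it. ITPR3 had 16 GGACT, or 1.62 per kb, ATP2B4 had 8 and STIM1 had 5, against a median of 0.938 per kb over all coding genes. ATP2B1 had 4, ATP2A2 had 2, and CALB2, TRPV6, ORAI1 and ORAI3 had 1 each. The match nearest to the end of the coding sequence is shown for STIM1 and ORAI1, the store-operated pair whose groups lay apart in opposite directions, and for the pumps ATP2B4 and ATP2A2. Each line is 21 bases of the sense strand, 5′ to 3′, with the match in capitals.
STIM1: atgatgaaGGACTtggagggg
ORAI1: acctacccGGACTggatcggc
ATP2B4: tgatgatgGGACTtttcattg
ATP2A2: gacaacccGGACTttgaaggc

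The STIM1, ORAI1 and ATP2A2 matches lie in the coding sequence. Their adenines are at -1633, -742 and -484 bases from the last coding base, in that order, where negative is upstream. The ATP2B4 match lies beyond the coding sequence, with its adenine 80 bases past the last coding base before the stop codon. A match is a run of letters and not evidence of a methylated site, and no methylation was measured here.

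The genes next to CALB1 on chromosome 8 had smaller fitted differences than CALB1 itself. Of the 11 other tested genes within 1 Mb, DECR1 rose and TMEM64 fell, and the other 9 were not called. Over all genes tested, 10.8% were called. DECR1, a mitochondrial enzyme of fatty acid oxidation whose gene ends 6.52 kb from CALB1 on the opposite strand, went from 135 to 162 CPM (log2 ratio 0.27, SE 0.062, edgeR adjusted p = 0.00719). TMEM64 at 526.5 kb on the other side went from 84.2 to 69.2 CPM (log2 ratio -0.28, SE 0.070, edgeR adjusted p = 0.0102). Both lost their call when either sh812 library was left out, with values from 0.24 to 0.29 for DECR1 and from -0.30 to -0.26 for TMEM64. NBN, the next gene beyond DECR1, had a log2 ratio of 0.097 (SE 0.062, edgeR adjusted p = 0.355), and 0.030 and 0.16 without sh812 replicates 1 and 2. RIPK2, OSGIN2, PIP4P2, OTUD6B, OTUD6B-AS1 and AF117829.1 had log2 ratios from -0.21 to -0.029. NECAB1, which encodes another calcium-binding protein, had 0.756 CPM in shNC and 0.524 CPM in sh812, and LINC00534 had 0.206 and 0.352 CPM. At such low levels their log2 ratios were imprecise, -0.53 (SE 0.56) for NECAB1 and 0.78 (SE 0.74) for LINC00534. Whether these neighbours differed less than CALB1 was not tested.

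**Figure D4:**
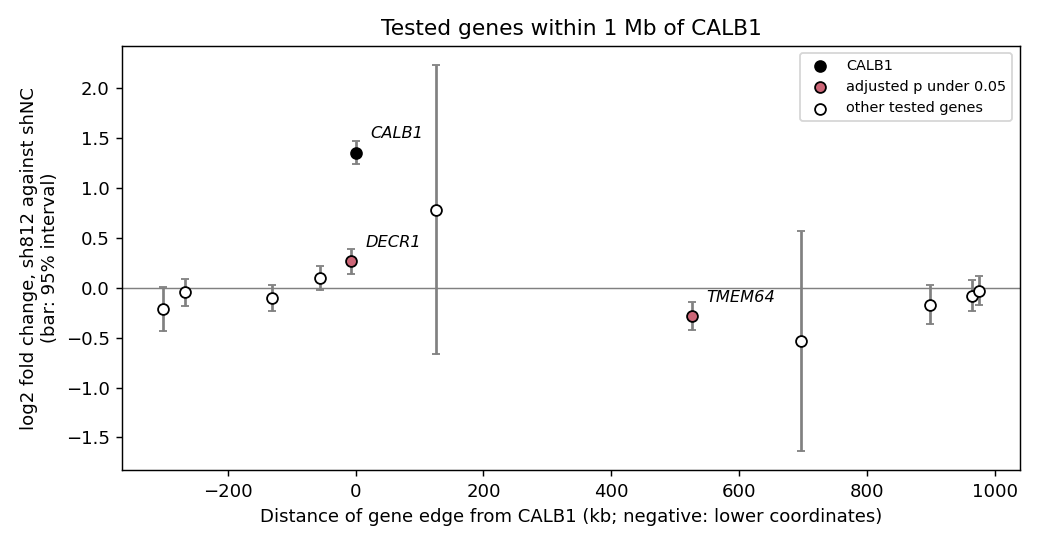
Log2 ratio of sh812 against shNC for CALB1 (black) and the 11 other tested genes within 1 Mb, by the distance of the gene's nearest edge from CALB1 in kb. Bars are 95% intervals and filled red points have an adjusted p under 0.05 in edgeR. CALB1 stands at 1.36, DECR1 at 0.27 and TMEM64 at -0.28.

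The 5 genes whose profile over the 4 libraries lay nearest to that of CALB1 were NTSR1, MUC5B, EPHB6, IL37 and CXCL5, in that order. Nearness was the Euclidean distance of mean-centred log2 CPM among 10838 genes with a mean of at least 5 CPM, and ran from 0.0990 for NTSR1 to 0.323 for CXCL5. NTSR1, the neurotensin receptor gene, had 13.8 and 14.3 CPM in shNC and 33.9 and 37.0 CPM in sh812. CXCL5, a chemokine gene, was the most abundant of the 5, at 1912 and 1976 CPM in shNC and 3978 and 4030 CPM in sh812. With 4 libraries in 2 groups, such a profile holds little beyond the difference between the groups.

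The rest of the calcium system was taken from 11 lists of 185 genes, written from general knowledge. Of the 174 genes in the table that are not among the 10 members, 128 passed the count filter. In edgeR's test 5 were called higher and 7 lower, which is 9.38% against 10.8% of all genes tested (5.43% higher and 5.42% lower). The median log2 ratio of the 128 was -0.046, and that of all genes tested was -0.0056. Scaling by library size without TMM moves the median of all genes to -0.050, and the split was then 4 higher and 16 lower. Without sh812 replicate 1 it was 2 higher and 4 lower, without sh812 replicate 2 it was 0 and 5, and without shNC replicate 2 it was 15 and 16. Without shNC replicate 1 it was 5 and 12.

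Among plasma membrane channels, 1 of 19 fell and 0 rose. TRPV4, a channel opened by osmotic and mechanical stimuli, had 209 and 176 counts in shNC and 51 and 68 counts in sh812. The log2 ratio of TRPV4 was -1.72 (SE 0.23, edgeR adjusted p = 1.90e-05). It was called in each alternative, library removal included. The median of the 19 was -0.25, and 5 were positive. Some of the 19 had few counts and an SE larger than the size of their log2 ratio. A shift of the channels as a class was not tested.

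Among calcium buffers with EF-hands, 2 of 14 rose and 0 fell. HPCAL1, a neuronal-type calcium sensor gene, had a log2 ratio of 0.27 (SE 0.060, edgeR adjusted p = 0.00421), and SRI, which encodes sorcin, 0.24 (SE 0.067, edgeR adjusted p = 0.0244). HPCAL1 was not called without sh812 replicate 2, and SRI was not called without shNC replicate 1, without either sh812 library or with library size alone (edgeR adjusted p = 0.0655). Of 11 mitochondrial uptake genes 2 rose and 0 fell, the outer membrane channels VDAC3 at 0.26 (SE 0.064, edgeR adjusted p = 0.00986) and VDAC1 at 0.21 (SE 0.058, edgeR adjusted p = 0.0175). Neither was called when either sh812 library was left out. The uniporter pore gene MCU had a log2 ratio of 0.0087 (SE 0.088, edgeR adjusted p = 0.969).

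Among chaperones of the reticulum lumen that bind calcium, 3 of 12 fell and 0 rose. HSP90B1 (GRP94) went from 1383 to 1137 CPM (log2 ratio -0.28, SE 0.055, edgeR adjusted p = 0.00145). CALU, which encodes calumenin, had a log2 ratio of -0.22 (SE 0.055, edgeR adjusted p = 0.0106), and CANX, which encodes calnexin, -0.17 (SE 0.054, edgeR adjusted p = 0.0439). HSP90B1 was not called without sh812 replicate 1, and CALU and CANX were not called without either sh812 library. CANX was also lost with RLE factors (edgeR adjusted p = 0.0601), with the replicate block (edgeR adjusted p = 0.0571) and with the length trend removed (log2 ratio -0.13, edgeR adjusted p = 0.138). CALR, which encodes calreticulin, had a log2 ratio of -0.11 (SE 0.054, edgeR adjusted p = 0.217).

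Of 23 genes of calmodulin, calcineurin and their kinases, 2 fell and 0 rose. CALM3, a gene for calmodulin, had 5348 and 4483 counts in shNC and 3910 and 3728 in sh812 (log2 ratio -0.39, SE 0.063, edgeR adjusted p = 0.000202). CALM2, which encodes the same protein, was not called (log2 ratio 0.11, SE 0.056, edgeR adjusted p = 0.234), and the difference between CALM3 and CALM2 was not tested. MYLK, a calmodulin-dependent kinase of myosin light chain, had a log2 ratio of -0.38 (SE 0.085, edgeR adjusted p = 0.00525). It was not called without sh812 replicate 2.

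In the vitamin D list, 1 of 7 rose and 1 fell. CYP27B1, the enzyme that makes active vitamin D, had 201 and 168 counts in shNC and 263 and 294 in sh812. Its log2 ratio was 0.57 (SE 0.16, edgeR adjusted p = 0.0241), and it was not called without either sh812 library or with DESeq2 (adjusted p = 0.0576). MED1, a Mediator subunit that binds nuclear receptors, went from 63.4 to 44.4 CPM (log2 ratio -0.51, SE 0.083, edgeR adjusted p = 0.000208). VDR, the receptor itself, had 29.4 CPM in shNC and 29.9 CPM in sh812 (log2 ratio 0.025, SE 0.091, edgeR adjusted p = 0.906). CYP24A1, a widely used vitamin D target gene, had 10 and 0 counts in shNC and 4 and 4 in sh812.

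In edgeR no gene was called among 8 tested genes of store-operated entry, 12 of reticulum release, 6 of pumps and their regulators, 5 of exchangers and 11 of phospholipase C and the calcium sensing receptor, all outside the 10 members. Their medians were -0.058, -0.099, -0.10, -0.0048 and -0.0078 in that order. Of these 42 genes, 3 were higher and 8 lower at an unadjusted p under 0.05. DESeq2 called 1 lower, and limma-voom called 4 lower, namely ERLIN1, FKBP1A, GNAQ and PLCB4, which were picked out after their values were seen. Over the lists where edgeR called no gene in 1 direction, an unadjusted p under 0.05 added 1 higher gene, in the calmodulin list, which limma-voom also called.

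**Figure D5:**
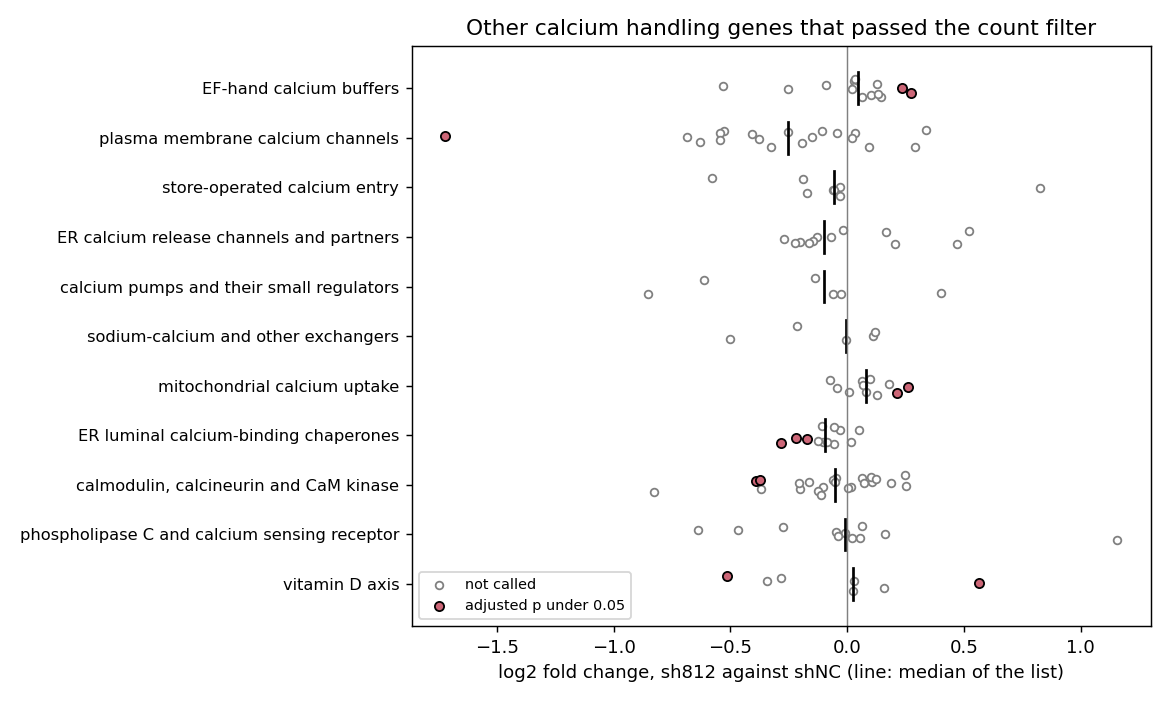
Log2 ratio of sh812 against shNC for the 128 tested calcium genes outside the 10 members, by list, with a vertical line at each list's median. Filled red points have an adjusted p under 0.05 in edgeR, and TRPV4 at -1.72 is the point farthest from 0. MED1 at -0.51 and CYP27B1 at 0.57 lie on opposite sides in the vitamin D list.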

How the data were processed

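The authors deposited raw read counts per gene with Ensembl identifiers, as whole numbers with a different total in each library. Per the submitters' processing notes, fastp, STAR 2.7.1a, featureCounts, DESeq2 and hg38 were used, with no role or order given. The annotation release and strand setting are not given in the sources used here. All 4 libraries were fitted with edgeR 4.0.16 in R 4.3.3 (filterByExpr, TMM, glmQLFit, glmQLFTest, default prior count), and p-values were adjusted over the 16802 genes kept. Genes with an adjusted p under 0.05 are described as called. SE came from the quasi-likelihood F statistic, and the 95% interval is the estimate with the normal multiple of the SE. Such intervals are approximate and somewhat narrower than the F test implies. For CALR the interval ran from -0.21 to -0.0024, while the unadjusted p in edgeR was 0.0562. The method was tested on simulated counts. The members and lists were chosen with earlier results of these data known. Named genes are METTL3, the 10 members, called list genes, the 5 nearest profiles and tested genes within 1 Mb of CALB1. Marker genes, paralogs of members, buffer and vitamin D genes given with values but outside this rule were added after their values were seen. Positions and lengths come from GENCODE 29, matched by identifier, whose build may differ in detail from the one behind the counts. Alternatives were other scalings, other filters, DESeq2 1.42.0, limma-voom (limma 3.58.1), a replicate block, removal of each library's length trend and leaving out each library.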

Additional observations from a re-analysis of the deposited data

How the results depend on the processing

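CALB1 kept its direction and size in every alternative run, with log2 ratios from 1.31 with library size alone to 1.41 with the length trend removed. It ran from 1.33 to 1.38 when a library was left out, and METTL3 ran from -2.52 to -2.33 when a library was left out. Counts of called genes moved. With library size alone 561 genes were higher, and 20 list genes were called, 16 of them lower. A mean CPM of at least 1 gave 19 list genes, 12 lower, while 11 were lower without a low-count filter and with limma-voom. Leaving out a library assumes that the lone library varies like the remaining pair, and gave 587 to 3252 called genes, 261 to 1703 higher and 326 to 1549 lower. For the list genes it gave 5 to 31, with 0 to 15 higher and 4 to 16 lower. The signs of small changes turned. ATP2B1 was 0.060 with the length trend removed, 0.020 without sh812 replicate 2, and spanned -0.057 to 0.036 with shNC replicates 2 and 1 left out. ITPR3 was 0.0044 with the length trend removed and 0.021 without shNC replicate 1, and -0.15 without shNC replicate 2. With the length trend removed, ATP2A2 was -0.014, ATP2B4 -0.077 and ORAI1 0.099. Over the libraries left out, OTUD6B-AS1 spanned -0.19 to 0.055, and OTUD6B -0.076 to 0.028, with shNC replicates 2 and 1 left out. OTUD6B was 0.011 without sh812 replicate 1, and RIPK2 spanned -0.10 to 0.0077 with sh812 replicates 1 and 2 left out. For each of them the cause was not tested. Across 13477 genes with a mean of at least 1 CPM, the log2 ratio had a Spearman correlation of -0.27 with exon length, given as a description. Same-numbered libraries deviated from their group means with a correlation of 0.0426, which is no evidence that they are pairs. A fit with the replicate block called 2001 genes, 16 of them list genes, and CALB1 was at 1.36. Of the 12 called list genes, CANX alone lost its call under the block (adjusted p = 0.0571 in edgeR). The length used for levels per kb was chosen after seeing the data.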
